A study of Mus musculus with 12 samples.

Results

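The denervated right gastrocnemius, a calf muscle of mainly fast fibres, was compared between 2 inbred mouse strains, BALB/c and C57BL/6. All mice were male and wild type (WT). The sciatic nerve of the right hind limb had been cut, and its stumps were reversed and stitched to muscle beside them. Tissue was collected 2 weeks later. Left legs are labelled healthy; a sham operation is described in the protocol, but no library is labelled as sham. Each strain has 3 right-leg and 3 left-leg polyA RNA libraries, so 6 of the 12 libraries of the series enter the main comparison. The age of the mice, and whether each library came from its own mouse, are not given in the sources used here, so p-values measure the spread between these libraries.

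Genes of the 2 deposited tables, 1 per strain, were joined by symbol (25094 genes). A gene was kept when both tables gave the same transcript and length (23630 genes) and its mean over the 6 right-leg libraries was at least 1 RPKM (reads per kilobase of transcript, scaled to library size). This left 10392 genes, from Snhg10 at a mean of 1.00 RPKM just inside the limit, with Spata2l at 0.999 just outside. A further 621 genes above the limit were left out because the tables used different transcripts for them. Strain, table and any batch of handling or sequencing cannot be told apart in this design, and reads were aligned to a genome of the C57BL/6 strain. In whole muscle, fewer cells of a type and less RNA per cell cannot be told apart either.

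Muscle that loses its nerve shrinks. Its fibres reopen genes of developing muscle, such as the fetal acetylcholine receptor, switch on ubiquitin ligases that mark proteins for the proteasome, and lose part of their mitochondrial and contractile programme. Inbred strains differ at many sites in the genome, so a difference between strains may be present in any muscle or only in one that has lost its nerve. The left legs of the same strains were therefore compared in the same way.

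Library totals used by the authors for scaling ran from 18132900 to 19282900 reads over the 12 libraries, and from 18409500 to 19282900 in the right legs. Sarcolipin (Sln), a small inhibitor of the calcium pump that denervated mouse muscle switches on, took 0.304% to 0.63% of gene reads in the 6 right libraries and at most 0.00123% in the 6 left ones. The first principal component of the right legs held 62.3% of the variance and separated the strains. The second held 18.3% and set BALB/c right 2 (score -29.1) apart from BALB/c right 1 and 3 (13.3 and 17.3). Haemoglobin RNA set 2 libraries apart: erythroid genes took 0.988% of reads in BALB/c right 1 and 2.19% in BALB/c right 2, against 0.0251% to 0.0363% in the other 4 right libraries. The alpha-globin gene Hba-a1, named here for that reason, stood at 4957 and 11104 rescaled RPKM in these 2 and at 101 to 131 in the others. Its strain difference was not called (log2 4.09 ± 1.45 SE, limma adjusted p = 0.0804). Fits without both high-haemoglobin libraries keep BALB/c right 3 as the only BALB/c right library. In the right legs their p-values and counts rest on the spread of the C57BL/6 libraries. Calls lost or gained in these fits cannot be told apart from an effect of fewer libraries.

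Between the right legs, 1276 of 10392 genes (12.3%) were higher in BALB/c and 1163 (11.2%) were lower, by limma on log2(rescaled RPKM + 0.5) with Benjamini-Hochberg adjusted p under 0.05, the meaning of "called" from here on. At least 1 log2 unit separated the strains for 314 called genes higher in BALB/c (3.02%) and for 227 lower ones (2.18%). Across all tested genes the median log2 difference, BALB/c minus C57BL/6, was -0.001 and the median absolute difference 0.28; 102 called genes differed by 2 log2 units or more and 4 by 4 or more. BALB/c libraries varied more (median SD over genes 0.201 log2) than C57BL/6 libraries (0.116). With 1 library left out, calls ranged from 440 higher and 382 lower (without C57BL/6 right 3) to 1672 higher and 1701 lower (without BALB/c right 2). They fell to 822 and 738 without BALB/c right 3, to 730 and 648 without C57BL/6 right 1, and to 723 and 544 without C57BL/6 right 2. As shares of all genes, 4.23% were called higher and 3.68% lower without C57BL/6 right 3, and 16.1% and 16.4% without BALB/c right 2. Without each other single library, 6.96% to 9.12% were higher and 5.23% to 8.71% lower. List counts with all 6 libraries are to be read beside 12.3% and 11.2% of all genes, and those with 1 library left out beside these shares. Without both high-haemoglobin libraries, 861 were higher and 939 lower; 1375 genes (56.4% of the calls) were called in both fits.

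The gene highest in BALB/c was Eyelinc18, a long non-coding RNA (mm9 chr13:98521067-98530918). It stood at 137, 236 and 182 rescaled RPKM in BALB/c right 1 to 3 and at 0.246, 0.199 and 0.153 in C57BL/6. The log2 difference was 8.02 ± 0.19 SE (adjusted p = 4.9e-06). Left legs differed in the same direction (log2 6.30, adjusted p = 2.0e-06).

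Myh6, the alpha cardiac myosin heavy chain (mm9 chr14:55560758-55585444, minus strand), was the coding gene with the largest difference. BALB/c right libraries held 66.2, 73.0 and 41.3 rescaled RPKM, and C57BL/6 ones 0.176, 0.214 and 0.127. All BALB/c values lay far above all C57BL/6 values (log2 6.46 ± 0.21, adjusted p = 2.3e-05), and so they did in the left legs (log2 5.21, adjusted p = 0.0032). Myh7, the slow and beta cardiac heavy chain, is its neighbour in the genome. Myh7 stood at 231, 203 and 131 in BALB/c and 68.2, 83.1 and 19.4 in C57BL/6 (log2 1.92 ± 0.52, adjusted p = 0.0356), so C57BL/6 muscle had Myh7 reads with next to no Myh6 reads. The Myh7 call was lost without any single BALB/c library or C57BL/6 right 1, without a filter on low values and with the spread shared over 12 libraries (adjusted p up to 0.1105), and without both high-haemoglobin libraries (log2 1.44, adjusted p = 0.27).

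Promoters of 2 sarcomere genes are shown as reference sequence, Myh6 for its strain difference in both legs and Actc1, the cardiac alpha actin, because its strain difference depended on the leg . Both promoters are from RefSeq on GRCm38.p6, a later build than the mm9 positions in the files, on the minus strand, written 5′ to 3′ along the gene, at chr14:54966558-54966857 and chr2:114052826-114053125. Capitals mark matches on either strand to an E-box (letters CANNTG), to the letters TATAAA, or to the CArG box, which serum response factor is known to bind.
Myh6: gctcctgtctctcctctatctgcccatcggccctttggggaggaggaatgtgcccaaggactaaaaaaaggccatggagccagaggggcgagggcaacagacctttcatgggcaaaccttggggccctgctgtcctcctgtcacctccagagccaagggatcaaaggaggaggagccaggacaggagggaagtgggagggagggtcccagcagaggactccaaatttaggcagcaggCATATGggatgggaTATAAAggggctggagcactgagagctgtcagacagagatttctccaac
Actc1: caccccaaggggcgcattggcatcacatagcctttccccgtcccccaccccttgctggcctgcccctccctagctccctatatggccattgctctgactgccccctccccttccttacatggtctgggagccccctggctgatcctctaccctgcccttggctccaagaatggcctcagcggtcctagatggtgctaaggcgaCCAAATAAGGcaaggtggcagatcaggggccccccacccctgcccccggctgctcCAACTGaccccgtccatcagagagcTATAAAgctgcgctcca
An E-box is in 72.3% of the 32851 RefSeq promoters of this length, the letters TATAAA in 13.6%, and the CArG box in 1.63%. The promoter of Myh6 has 1 E-box and 1 match to TATAAA, and that of Actc1 has 1 match to each of the 3 motifs. Counted from the annotated start site, TATAAA began at 1 in Myh6 and at 33 in Actc1, so neither match lies upstream of it. The E-box began at -13 in Myh6 and at 8 in Actc1, and the CArG box of Actc1 at -47. These are matches of letters in a C57BL/6 genome, not measured sites, and the BALB/c sequence was not used here. BALB/c mice are known to carry a rearrangement near Actc1.

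The other genes highest in BALB/c had varied roles. H2-Ea-ps, the MHC class II gene E alpha, which C57BL/6 mice are known not to express because of a deletion, had 185 to 251 reads in each BALB/c right library and 0 in each C57BL/6 one. With a floor of 3 reads per library, BALB/c was at least 68.9-fold higher (12, 18.6 and 12.8 rescaled RPKM; adjusted p = 3.2e-05). Col10a1, a collagen known from growth cartilage, stood at 67.6, 39.8 and 86.6 in BALB/c and 8.47, 3.08 and 3.22 in C57BL/6 (log2 3.66 ± 0.41, adjusted p = 0.0023). Its gene lies inside Nt5dc1 on the other strand, and reads were counted without strand. Tceal6 (log2 3.29 ± 0.21), Tmem232 (3.73 ± 0.32), Marcksl1 (3.26 ± 0.40) and Gdpd3, a lysophospholipase D (3.05 ± 0.26), were also among the 12 largest by the naming rule. Tceal6 shares sequence with Tceal3.

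Uchl1 was the gene most reduced in BALB/c. It encodes a ubiquitin hydrolase abundant in neurons (mm9 chr5:67067360-67078473). BALB/c right libraries held 5.67, 14.3 and 18.6 rescaled RPKM and C57BL/6 ones 295, 232 and 274, a 22.1-fold difference on the fitted scale (log2 -4.47 ± 0.38, adjusted p = 0.00097). The non-coding Uchl1os lies over it on the other strand, so its reads cannot be told apart from those of Uchl1.

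Spp1, osteopontin, a secreted matrix protein and cytokine made by macrophages and regenerating muscle, stood at 0.999, 2.90 and 2.29 in BALB/c and 29.1, 35.3 and 38.9 in C57BL/6 (log2 -3.84 ± 0.29, adjusted p = 0.00063). Dusp4, a phosphatase that acts on MAP kinases, stood at 0.644, 0.452 and 0.658 against 6.46, 7.86 and 9.67 (log2 -2.96 ± 0.17, adjusted p = 0.00029). Tuft1 stood at 0.494, 0.543 and 0.455 against 6.68, 6.72 and 6.57 (log2 -2.84 ± 0.11, adjusted p = 3.9e-05). Absence of overlap between the strains was part of how these largest differences were chosen; it held for 2437 of the 2439 called genes and for 4600 of all 10392.

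Further genes lower in BALB/c were Tmem158 (log2 -2.77 ± 0.27) and Hhipl1 (-2.48 ± 0.35). The rod transducin subunit Gnat1 (-2.85 ± 0.25), known from photoreceptors, was read at 2.25 to 4.44 rescaled RPKM in C57BL/6 and at most 0.110 in BALB/c. Ndufa12, a subunit of respiratory complex I, stood at 16.3, 26.5 and 16.0 against 139, 125 and 116 (-2.70 ± 0.20, adjusted p = 0.00061), and Carnmt1, a carnosine methyltransferase, was lower as well (-2.53 ± 0.14). Trim12a, of a family of antiviral proteins, had 0 reads in each BALB/c right library and 59 to 64 in C57BL/6, at least 19.3-fold lower with a floor of 3 reads per library. Trim12a shares near-identical sequence with Trim12c and Trim5, and Gapdh (log2 -2.67 ± 0.27) with 71 other genes, 67 of them pseudogenes, so both differences are uncertain.

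**Figure D1:**
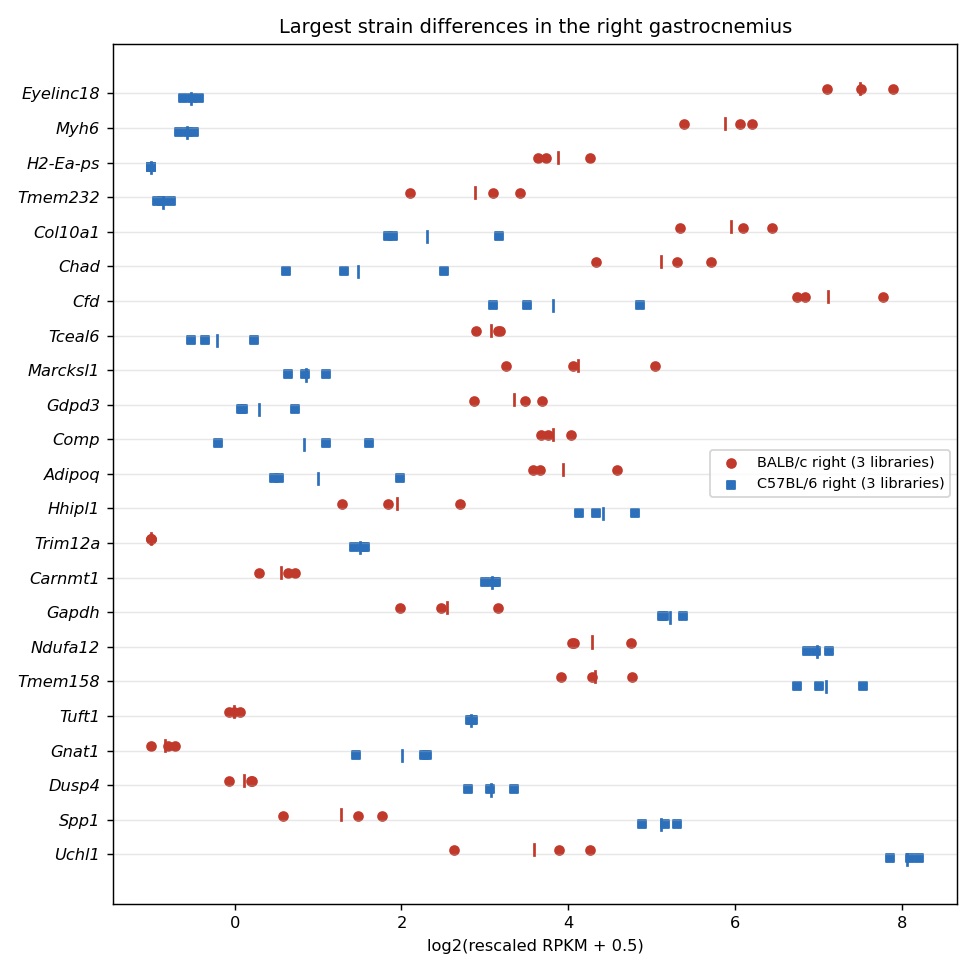
Level of the 12 genes that the naming rule picked as highest in BALB/c right muscle and of genes among its 12 lowest, as log2(rescaled RPKM + 0.5) on the horizontal axis. Each point is 1 library and each short line the mean of 3. Genes were chosen to have no overlap between strains and run from Eyelinc18 (log2 difference 8.02) at the top down to Uchl1 (-4.47) at the bottom.

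Genes of the neuromuscular junction came next, since denervation acts through it. Of 17 tested members, 1 was higher in BALB/c and 5 were lower, against 12.3% and 11.2% of all genes. The median log2 difference was -0.43 against -0.001 for all genes. Musk, the kinase that organises receptor clusters, stood at 7.64, 8.39 and 7.98 against 11.5, 14.9 and 17.8 (log2 -0.82 ± 0.16, adjusted p = 0.012). Every C57BL/6 library was above every BALB/c library, and Musk was not called without both high-haemoglobin libraries (adjusted p = 0.079). With 1 library left out, 3 to 7 members were lower and 0 to 2 higher, while 3.68% to 16.4% of all genes were lower and 4.23% to 16.1% higher.

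The receptor subunits missed the threshold with all 6 libraries, and for Chrng and Chrne that depended on the setting. Chrna1 had 164, 180 and 218 in BALB/c and 262, 227 and 269 in C57BL/6 (log2 -0.43 ± 0.15, adjusted p = 0.0766). The fetal gamma subunit Chrng had 69.2, 141 and 93.4 against 152, 161 and 156 (-0.68 ± 0.24, adjusted p = 0.0787), Chrnd a log2 difference of -0.45 (adjusted p = 0.20) and the adult Chrne one of -1.01 (adjusted p = 0.0906). Chrng was called as lower in BALB/c without BALB/c right 2 (adjusted p = 0.0061), after quantile normalization (0.0235) or rescaling to a common sum (0.0249), and with the spread shared over 12 libraries (0.0251). Chrne was called as lower without BALB/c right 2 (0.0055), with a block for the replicate number (0.0190) and after rescaling to a common sum (0.0448). Without both high-haemoglobin libraries the log2 differences were -0.74 for Chrng and -1.46 for Chrne. Chrna1 and Chrnd were called under none of the alternatives. The neuronal subunit Chrna7, which the series' design names, had 0 or 1 read in each BALB/c right library and 1 to 3 in each C57BL/6 one, too few to compare.

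Among 19 tested myogenic and denervation-responsive regulators, 1 was called higher and 2 lower (median -0.06), or 0 to 1 and 0 to 3 with 1 library left out (0 and 0 without C57BL/6 right 3). Over all genes 12.3% were called higher and 11.2% lower. Myogenin (Myog), a transcription factor induced by denervation, ranged from 116 to 223 in BALB/c and 91.5 to 286 in C57BL/6 (log2 -0.17 ± 0.42, adjusted p = 0.79). Runx1 (-0.06 ± 0.13), Ncam1 (-0.18 ± 0.14), Gadd45a (-0.11 ± 0.20) and Sln (0.41 ± 0.37) were likewise not called, and for each the strains overlapped. The epithelial-type keratins, partners in 1 filament, gave log2 -0.70 (Krt18, adjusted p = 0.16, and 0.0181 without BALB/c right 2) and -1.43 (Krt8, adjusted p = 0.0256). Without both high-haemoglobin libraries the Krt18 difference was -0.66. The Krt8 call was lost without BALB/c right 1, BALB/c right 3 or any C57BL/6 library (adjusted p up to 0.0805 over all alternatives). Of 8 satellite cell markers, 1 was higher and 1 lower; Megf10, a phagocytic receptor of these stem cells, stood at 1.20, 1.46 and 1.15 against 2.77, 2.49 and 2.76 (log2 -0.85 ± 0.13, adjusted p = 0.0058).

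Of 20 ubiquitin ligases of atrophy, 3 were higher and 3 lower (median -0.02), near the 12.3% and 11.2% of all genes; leaving out 1 library gave 2 to 4 higher and 1 to 4 lower, the fewest without C57BL/6 right 3. Trim63 (MuRF1), which tags myosin for breakdown, stood at 159, 173 and 220 in BALB/c and 99.2, 89.1 and 90.7 in C57BL/6 (log2 0.97 ± 0.15, adjusted p = 0.0062). Asb2, a ligase subunit that removes filamin, stood at 240, 156 and 183 against 65.7, 50.9 and 45.1 (log2 1.83 ± 0.20, adjusted p = 0.0022). Both had every BALB/c library above every C57BL/6 library, whereas Asb15 was lower in BALB/c (log2 -1.56 ± 0.18, adjusted p = 0.0025). Fbxo32 (atrogin-1) ranged from 28.3 to 51.4 and from 27.6 to 34.6 and was not called (0.38 ± 0.22, adjusted p = 0.24).

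The next 3 lists are to be read beside 12.3% of all genes called higher and 11.2% lower. Of 32 proteasome subunits, 3 were higher and 3 lower (median 0.03), or 1 to 4 and 1 to 3 with 1 library left out, the fewest without BALB/c right 3, C57BL/6 right 2 or C57BL/6 right 3. Psmb3 (log2 1.01 ± 0.16) and Psmb5, a catalytic subunit (-1.73 ± 0.15, adjusted p = 0.0010), pointed in opposite directions, and both have near-identical pseudogenes. Autophagy and lysosome genes gave 1 higher and 3 lower of 25 (median 0.05; 0 to 1 and 1 to 4 with 1 library left out, 1 lower without BALB/c right 3, C57BL/6 right 2 or C57BL/6 right 3), among them the mitophagy receptor Bnip3 (-0.91 ± 0.13, adjusted p = 0.0047). Heat shock proteins and co-chaperones gave 1 higher and 4 lower of 16 (median -0.31, or -0.45 to -0.16 with 1 library left out; 1 lower without C57BL/6 right 3, 2 without BALB/c right 1, C57BL/6 right 1 or C57BL/6 right 2, and 6 without BALB/c right 2), with the mitochondrial chaperone Hspd1 between 17.1 and 19.1 in BALB/c and between 28.8 and 30.4 in C57BL/6 (-0.69 ± 0.09, adjusted p = 0.0041). Bnip3 and Hspd1 each have a near-identical copy.

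The count of mitochondrial genes lower in BALB/c rose without BALB/c right 2 and fell without any other single library. Of 48 nuclear genes for oxidative phosphorylation, 8 were lower and 0 higher (limma; 16 lower and 1 higher at unadjusted p under 0.05; 10 and 1 by limma-voom), with a median log2 difference of -0.42. That is 16.7% of the list, against 11.2% of all genes. Without BALB/c right 2, which sat apart on the second component and had the highest haemoglobin share, 42 were lower and 1 higher (median -0.64), 87.5% of the list against 16.4% of all genes. Without any other single library 2 or 3 were lower (4.17% or 6.25%, against 3.68% to 8.71% of all genes). Without both high-haemoglobin libraries the median log2 difference was -0.66. Quantile normalization gave 23 lower and rescaling to a common sum 19. Sdha, the catalytic subunit of complex II, stood at 63.4, 68.2 and 55.2 in BALB/c and 136, 157 and 162 in C57BL/6 (log2 -1.28 ± 0.13, adjusted p = 0.0017). Ndufa4, of complex IV, stood at 239, 358 and 230 against 644, 675 and 611 (-1.25 ± 0.20, adjusted p = 0.0067). Sdha and Ndufa4 were called under every alternative run.

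The citrate cycle and fatty acid use gave 13 of 39 lower (33.3%, against 11.2% of all genes) and 1 higher (median -0.43). This became 25 lower without BALB/c right 2, 6 without BALB/c right 1, 3 without BALB/c right 3, 5 without C57BL/6 right 1 and 1 without C57BL/6 right 2 or 3. Without both high-haemoglobin libraries the median was -0.64. Pdha1, which feeds pyruvate into the cycle, stood at 59.6, 67.9 and 47.6 against 115, 135 and 134 (log2 -1.14 ± 0.16, adjusted p = 0.0042); it overlaps Map3k15 on the other strand. All 3 C57BL/6 libraries were above the BALB/c ones. Glycolysis and glycogen genes gave 0 higher and 5 lower of 25 (limma; 1 and 8 at unadjusted p under 0.05; 0 and 5 by limma-voom; median -0.34), 3 to 10 lower with 1 library left out. Hexokinase 2 (Hk2), the first step of muscle glucose use, stood at 16.1, 15.2 and 14.8 against 25.1, 35.2 and 35.8 (-1.02 ± 0.15, adjusted p = 0.0058).

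**Figure D2:**
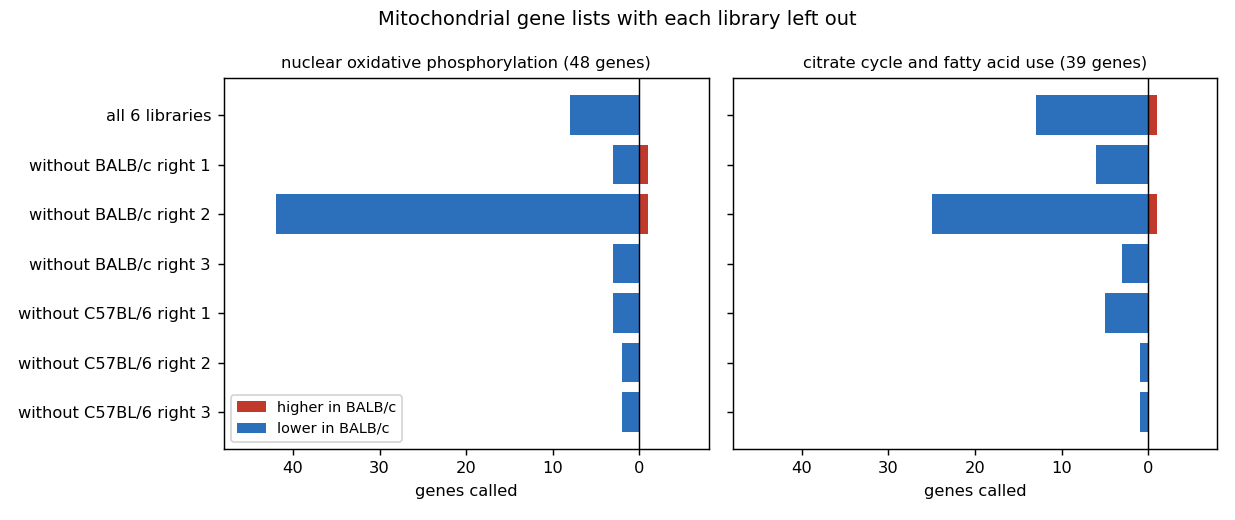
Number of genes called in each direction for the nuclear oxidative phosphorylation list (48 genes) and the citrate cycle and fatty acid list (39 genes), with all 6 libraries and with each left out; bars to the left count genes lower in BALB/c. The first list goes from 8 lower to 42 when BALB/c right 2 is left out and to 2 or 3 when another library is.

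Sarcomere lists are to be read beside 12.3% of all genes called higher and 11.2% lower. Of 16 fast sarcomere genes, 1 was called higher in BALB/c and 0 lower (limma, with 1 and 0 at unadjusted p under 0.05, 1 and 0 by limma-voom, and a median of -0.10). That gene was Mylk2, the skeletal myosin light chain kinase, at 143, 146 and 126 against 58.5, 65.8 and 69.8 (log2 1.09 ± 0.12, adjusted p = 0.0023). The fast heavy chains Myh4 (0.64 ± 0.41), Myh1 (-0.36 ± 0.20) and Myh2 (-0.33 ± 0.40) were not called, and their strains overlapped. Slow sarcomere genes gave 4 higher and 1 lower of 13 (median 0.76), but 1 higher without BALB/c right 2 or 3, 2 without BALB/c right 1, and 1 higher with a median of 0.08 without both high-haemoglobin libraries. Tnni1, the slow troponin I, kept its call throughout: 505, 640 and 471 against 141, 159 and 81.8 (2.12 ± 0.26, adjusted p = 0.0031).

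Calcium handling and excitation-contraction genes gave 6 higher and 6 lower of 23 (median -0.07), against 12.3% and 11.2% of all genes. Leaving out C57BL/6 right 3 reduced this to 2 and 1, and C57BL/6 right 2 to 4 and 1. Calls over all genes fell too, to 4.23% higher and 3.68% lower without C57BL/6 right 3. Without C57BL/6 right 2 they were 6.96% and 5.23%. Rem1, a small GTPase that restrains calcium channels, stood at 2.90, 3.39 and 3.02 in BALB/c and 0.691, 0.766 and 1.26 in C57BL/6 (log2 1.38 ± 0.18, adjusted p = 0.0033). Mss51, a muscle mitochondrial protein placed on this list, stood at 188, 104 and 124 against 54.5, 17.2 and 18.3 (2.35 ± 0.44, adjusted p = 0.011; 0.0841 without both high-haemoglobin libraries).

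Markers of cell types other than the fibre were counted next, beside 12.3% of all genes called higher and 11.2% lower. Leaving out C57BL/6 right 3 lowered these shares of all genes to 4.23% and 3.68%. Counts for several of these lists in the left legs are given further on. Of 10 adipocyte markers, 7 were higher and 0 lower (limma; 7 and 0 at unadjusted p under 0.05, and 7 and 0 by limma-voom; median 2.09). Adipoq, the adipocyte hormone adiponectin, stood at 11.4, 23.5 and 12.1 against 0.941, 3.47 and 0.888 (log2 2.95 ± 0.45, adjusted p = 0.00595), and Cfd (adipsin) at 107, 219 and 114 against 10.9, 28.7 and 8.04 (3.30 ± 0.47, adjusted p = 0.0049). The summed level of 12 markers ranged from 413 to 701 rescaled RPKM in BALB/c and 140 to 254 in C57BL/6, without overlap, and Ucp1 was at 0 in 2 C57BL/6 libraries. Left out in turn, C57BL/6 right 3 left 4 called and the other libraries 6 or 7; without both high-haemoglobin libraries 3 were called (median 1.87), and Adipoq was not (adjusted p = 0.0511).

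Tendon and cartilage markers gave 6 higher and 0 lower of 10 (limma; 6 and 0 at unadjusted p under 0.05, and 6 and 0 by limma-voom; median 1.80). Chad (chondroadherin) stood at 51.9, 19.6 and 38.9 against 1.04, 5.18 and 1.99 (log2 3.63 ± 0.51, adjusted p = 0.0047), with Acsf2 overlapping on the other strand, and Comp, a cartilage matrix protein, at 15.8, 13.1 and 12.3 against 0.371, 2.56 and 1.63 (2.99 ± 0.41, adjusted p = 0.0045). The sum of 14 markers ran from 262 to 316 in BALB/c and from 110 to 280 in C57BL/6, so the sums overlapped although the called genes did not. Acan was at 0 in 5 of the 6 libraries. Calls numbered 4 without C57BL/6 right 3 and 2 without both high-haemoglobin libraries (median 1.16), where Comp was not called (adjusted p = 0.0531).

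Fibroblast and fibro-adipogenic progenitor markers gave 5 higher and 0 lower of 15 (limma; 6 and 0 at unadjusted p under 0.05, and 5 and 0 by limma-voom; median 0.29). Gsn, gelsolin, an actin-severing protein, stood at 580, 533 and 549 against 150, 199 and 150 (log2 1.75 ± 0.16, adjusted p = 0.0011), and the transcription factor Osr1 at 7.60, 5.72 and 6.18 against 2.20, 2.76 and 1.87 (1.34 ± 0.16, adjusted p = 0.0027). The sum of 16 markers was 1097 to 1325 in BALB/c and 415 to 703 in C57BL/6. Without C57BL/6 right 3, or without both high-haemoglobin libraries, 2 were called; without BALB/c right 1, 3 were.

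Extracellular matrix genes gave 10 higher and 1 lower of 33 (median 0.37), the lower one being Spp1. Of all genes 12.3% were higher, or 4.23% without C57BL/6 right 3 and 9.12% without BALB/c right 1. Mmp2, a gelatinase, stood at 71.3, 77.5 and 78.4 against 22, 25.7 and 21.9 (log2 1.69 ± 0.11, adjusted p = 0.000345), and fibromodulin (Fmod), which binds collagen, at 72.9, 51.1 and 53.8 against 5.29, 19.8 and 8.93 (2.51 ± 0.41, adjusted p = 0.0076). In both, all BALB/c libraries were above all C57BL/6 ones. Counts of higher genes fell to 4 without C57BL/6 right 3, 6 without BALB/c right 1 and 3 without both high-haemoglobin libraries (median 0.22), where Fmod was not called (adjusted p = 0.0718).

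Endothelial markers gave 7 higher and 0 lower of 17 (limma; 10 and 0 at unadjusted p under 0.05, and 8 and 0 by limma-voom; median 0.46). The count fell to 1 without C57BL/6 right 1, 2 without C57BL/6 right 3, 3 without BALB/c right 1 or C57BL/6 right 2, 4 without BALB/c right 3, and 1 without both high-haemoglobin libraries. Ly6c1, with a near-identical partner in Ly6c2, ranged from 52.8 to 69.9 in BALB/c and from 26.4 to 38.3 in C57BL/6 (log2 0.92 ± 0.17, adjusted p = 0.010; 0.0797 without both high-haemoglobin libraries). Calls as higher over all genes fell as well, from 12.3% to 7.02% without C57BL/6 right 1 and 4.23% without C57BL/6 right 3. They were 9.12% without BALB/c right 1, 6.96% without C57BL/6 right 2 and 7.91% without BALB/c right 3. Endothelial sums were 522 to 666 in BALB/c and 277 to 410 in C57BL/6.

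Macrophage markers gave 4 higher and 0 lower of 15 (limma; 7 and 0 at unadjusted p under 0.05, and 3 and 0 by limma-voom; median 0.76), and 0 were called without both high-haemoglobin libraries (median 0.36). With 1 library left out, 1 to 5 were called, the fewest without C57BL/6 right 3. Summed levels nearly met, 199 to 366 against 101 to 198. Lysozyme Lyz2, an enzyme of myeloid cells close in sequence to Lyz1, stood at 91.8, 112 and 68.9 against 26.9, 48.1 and 30.7 (log2 1.37 ± 0.25, adjusted p = 0.011; 0.0503 without C57BL/6 right 3, 0.10 without both high-haemoglobin libraries). Complement genes gave 6 higher and 1 lower of 14 (median 0.79), falling to 2 and 0 without both high-haemoglobin libraries; C3, the central component, stood at 23.6, 21.5 and 13.4 against 3.47, 5.85 and 5.04 (1.91 ± 0.25, adjusted p = 0.0036).

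Erythroid genes gave 2 higher and 0 lower of 7 (limma; 6 and 0 at unadjusted p under 0.05, and 5 and 0 by limma-voom), and both called symbols, Hbb-b2 and Hbb-bt, hold the same values; the call was lost without BALB/c right 1, C57BL/6 right 1 or C57BL/6 right 3 (adjusted p up to 0.084). The median was 4.08, and 0.42 without both high-haemoglobin libraries, where 0 were called. Of 2 tested lymphocyte and mast cell markers none was called (limma; 1 higher at unadjusted p under 0.05, none by limma-voom). Pericyte and smooth muscle markers gave 1 higher and 1 lower of 9 (median 0.26), and Schwann cell markers 1 higher and 0 lower of 7 (limma; 2 and 1 at unadjusted p under 0.05, and 1 and 0 by limma-voom; median 0.13). That Schwann gene was Ngfr, a neurotrophin receptor of cells without axon contact, at 8.45, 4.04 and 9.04 against 1.38, 2.24 and 1.38 (log2 1.77 ± 0.30, adjusted p = 0.0083). Schwann sums (39.6 to 56.5 in BALB/c, 21.1 to 75.8 in C57BL/6) and lymphocyte and mast cell sums (4.71 to 22.9 against 3.58 to 6.57) overlapped between strains. Sums of erythroid, adipocyte, fibroblast, macrophage, endothelial, and pericyte and smooth muscle markers were higher in BALB/c without overlap. For some, the lowest BALB/c library was barely above the highest C57BL/6 one. These were the erythroid (493 against 446), macrophage (199 against 198) and pericyte and smooth muscle sums (3053 against 3037). The part of these sums in the differences described was not tested.

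**Figure D3:**
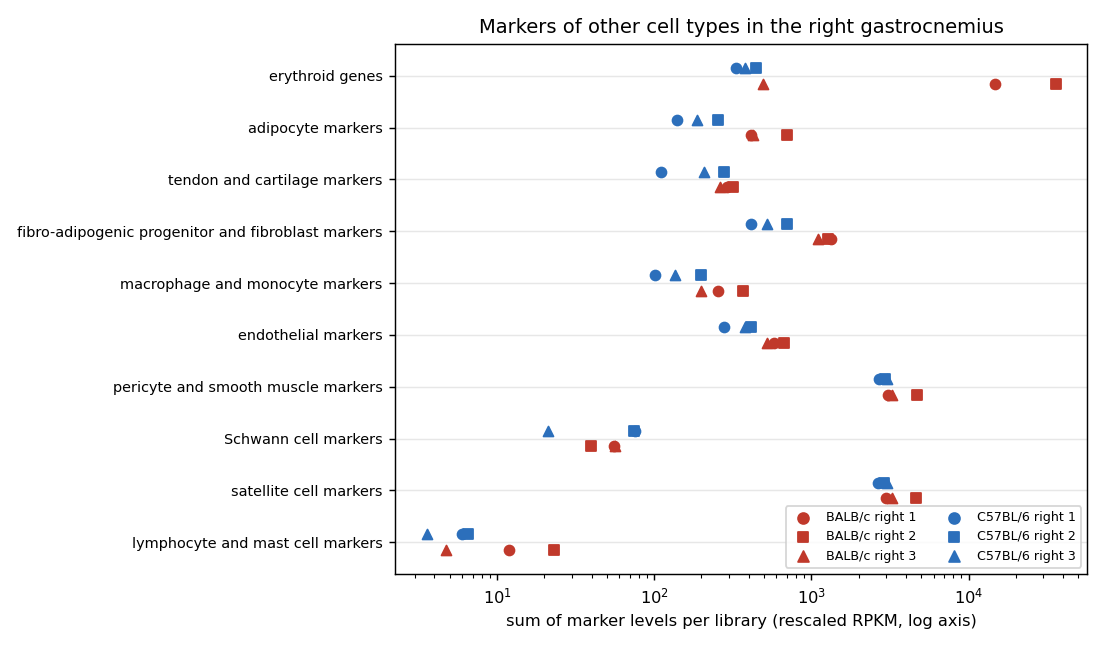
Summed rescaled RPKM of the markers of each cell type (log axis) in each of the 6 right-leg libraries, BALB/c in red and C57BL/6 in blue, with shapes for library numbers. Erythroid sums of BALB/c right 1 and 2 (14660 and 36030) lie far above the other 4 libraries (334 to 493), and adipocyte sums of the strains do not overlap; the pericyte and satellite sums are carried by desmin, which muscle fibres make.

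Of 23 interferon-induced genes, 3 were higher and 2 lower (median -0.01), or 1 higher and 2 lower without C57BL/6 right 2. Over all genes 12.3% were called higher and 11.2% lower. Irgm2 and Igtp, interferon-inducible GTPases that act against intracellular pathogens, were lower: 1.29, 1.12 and 1.07 against 5.43, 5.73 and 5.24 for Irgm2 (log2 -1.85 ± 0.11, adjusted p = 0.00030) and 2.72, 2.77 and 1.89 against 9.58, 8.06 and 9.31 for Igtp (-1.69 ± 0.15, adjusted p = 0.00115). Strains did not overlap for either. Ifi204, close in sequence to Ifi211, was higher (1.05 ± 0.14, adjusted p = 0.0039).

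MHC and antigen presentation genes gave 4 higher and 0 lower of 20 (limma; 6 and 0 at unadjusted p under 0.05, and 4 and 0 by limma-voom; median 0.16), with H2-Ea-ps leading. Of all genes 12.3% were higher and 11.2% lower. The count fell to 1 without C57BL/6 right 2 and to 2 without C57BL/6 right 1, C57BL/6 right 3 or both high-haemoglobin libraries. The strains carry different MHC haplotypes, which can alter how reads align. Stress genes of the ATF4 response gave 2 higher and 1 lower of 16 (median 0.23), with 0 higher without BALB/c right 3, C57BL/6 right 2 or C57BL/6 right 3. The lower one was Mthfd2, a mitochondrial folate enzyme, at 1.88, 3.92 and 2.97 against 15.7, 13.4 and 18 (log2 -2.28 ± 0.23, adjusted p = 0.0017). Metallothioneins and antioxidant enzymes gave 3 higher and 3 lower of 31 (median -0.14; 2 to 4 and 1 to 5 with 1 library left out), with the glutathione transferase Gstm2 at 109, 105 and 120 against 43.4, 46.5 and 37.8 (1.38 ± 0.12, adjusted p = 0.0010).

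Polyamine enzymes gave 0 higher and 3 lower of 10 (limma; 0 and 6 at unadjusted p under 0.05, and 0 and 3 by limma-voom; median -0.49). Over all genes 12.3% were called higher and 11.2% lower. Spermine synthase (Sms) stood at 4.79, 4.52 and 6.03 against 12.7, 12.2 and 10.2 (log2 -1.13 ± 0.14, adjusted p = 0.0031). Odc1, the first enzyme of the pathway, stood at 21.7, 24.2 and 25.8 against 52.9, 48.7 and 53.7 (-1.10 ± 0.11, adjusted p = 0.0015) and has 3 near-identical pseudogenes. Neither gene overlapped between strains.

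Cell cycle genes gave 5 higher and 2 lower of 16 (median 0.05), against 12.3% and 11.2% of all genes. With 1 library left out 0 to 5 were higher, the fewest without C57BL/6 right 3. Only the 2 lower members are described here, although more members were called higher. Rrm2, a ribonucleotide reductase subunit needed for DNA synthesis, stood at 1.32, 1.17 and 2.31 against 13.0, 7.48 and 10.6 (log2 -2.37 ± 0.25, adjusted p = 0.00195). Mcm6, a part of the replicative helicase, stood at 0.700, 0.567 and 0.638 against 3.62, 6.82 and 5.86 (-2.35 ± 0.22, adjusted p = 0.0012). Both were called as lower in every alternative in which they were tested.

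Signalling of IGF, TGF-beta and myostatin gave 3 higher and 2 lower of 27 (median 0.19; 1 and 0 without C57BL/6 right 3), with the binding protein Igfbp4 at 44.4, 41.4 and 36.3 against 13.9, 23.3 and 18.1 (log2 1.15 ± 0.19, adjusted p = 0.0076; 0.0749 without both high-haemoglobin libraries). Counts in this paragraph are to be read beside 12.3% of all genes called higher and 11.2% lower. Clock genes gave 1 higher and 3 lower of 16 (median -0.19), or 1 to 3 and 1 to 4 with 1 library left out. The repressor Bhlhe41 was lower (-0.85 ± 0.12, adjusted p = 0.0050). None of 20 immediate early genes was called (limma; 4 higher and 0 lower at unadjusted p under 0.05; none by limma-voom; median 0.27), with Jun, the most abundant, at a log2 difference of -0.13 (adjusted p = 0.52). Of 18 genes known to differ in DNA between mouse strains, 4 were higher and 3 lower (median -0.02; 2 to 6 and 2 to 5 with 1 library left out), among them the lipid enzyme Pisd (-0.68 ± 0.11, adjusted p = 0.0073). Nnt, a mitochondrial transhydrogenase disrupted in the C57BL/6J substrain, was not called in the right legs (-0.34 ± 0.15, adjusted p = 0.13).

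**Figure D4:**
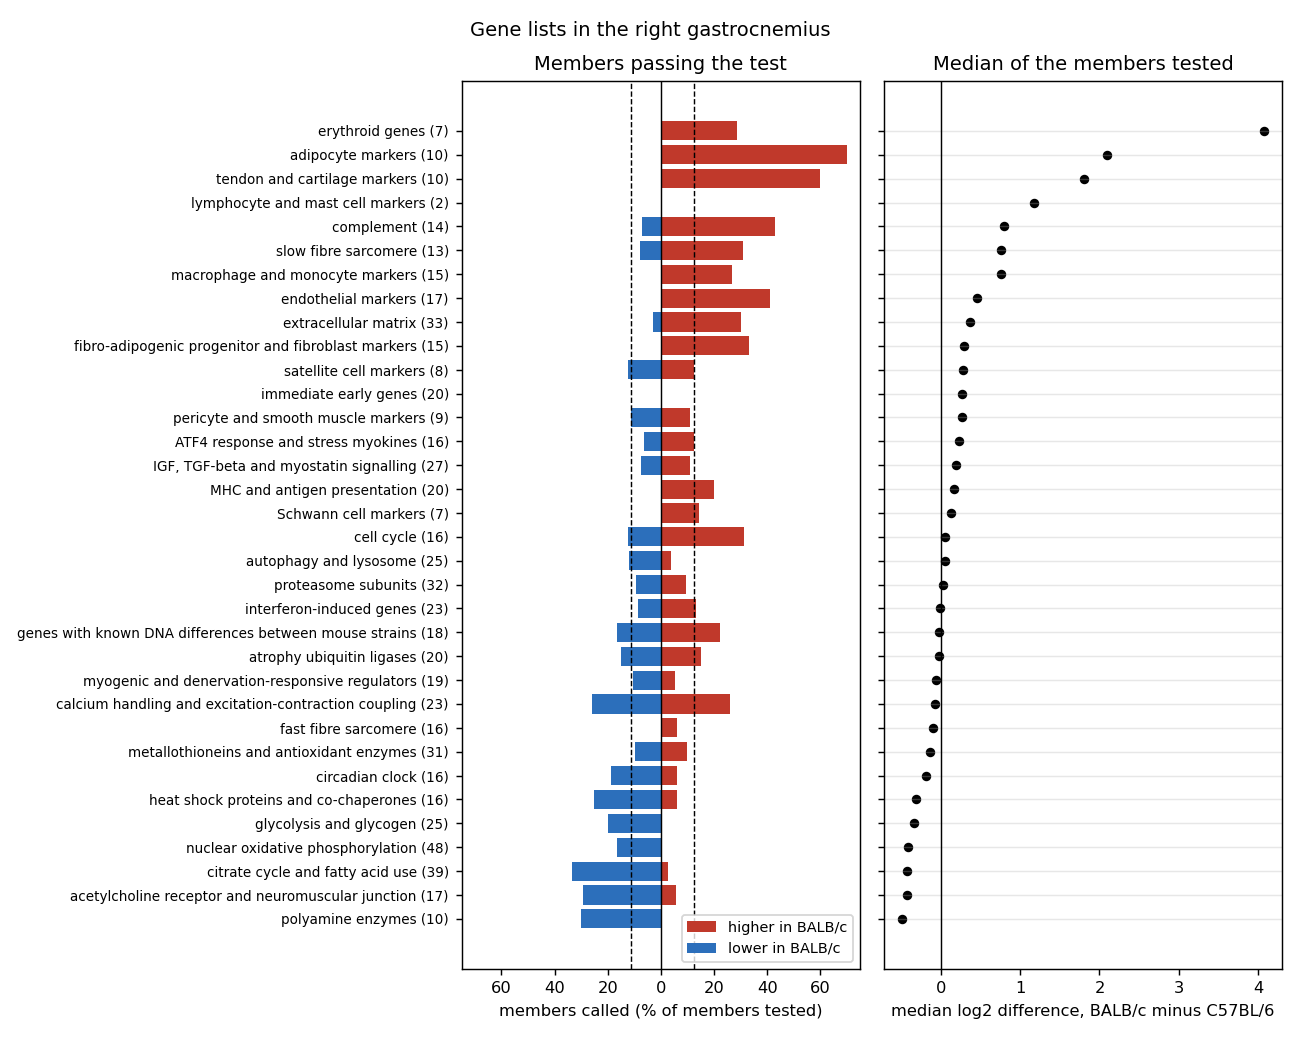
For each of the 34 gene lists (number of tested genes in brackets), the left panel gives the share of members called higher (red) or lower (blue) in BALB/c, with dashed lines at the shares of all genes (12.3% and 11.2%), and the right panel the median log2 difference. Adipocyte and tendon markers reach 7 of 10 and 6 of 10 higher; polyamine enzymes have the lowest median, -0.49.

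To learn which right-leg differences were also there without nerve section, the left legs were compared. Of 9409 genes tested there, 1531 (16.3%) were higher in BALB/c and 1292 (13.7%) lower, a split that became 2314 and 455 after rescaling to a common sum. Among 9172 genes tested in both legs, 510 were higher in both, which is 45.2% of the 1128 right-leg and 34.3% of the 1485 left-leg calls, and 428 were lower in both, 41.7% of 1026 and 34.3% of 1249. Opposite calls were few, 21 genes higher in the right and lower in the left and 31 the reverse. In the left legs extracellular matrix genes gave 29 higher of 30 (median log2 1.72), tendon markers 8 of 9 (3.79) and fibroblast markers 12 of 15 (1.47). Macrophage markers gave 8 of 8 (2.06), complement genes 10 of 13 (1.43) and adipocyte markers 5 of 9 (2.71), with 0 lower in each list. Each median was above that of the right legs, so these lists were not higher in BALB/c in denervated muscle alone. Ndufa12 (log2 -2.70 right, -2.69 left), Carnmt1 (-2.53, -2.74), Gnat1 (-2.85, -3.04) and Gsn (1.75, 1.97) were called in both legs at like size.

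The difference between the legs was itself tested in the 12 libraries, rescaled together. The strain difference, right minus left, was called as higher for 435 of 10129 genes (4.29%) and as lower for 469 (4.63%), or 88 and 728 after rescaling to a common sum, and 507 of 2357 right-leg calls with a value were called in it. Left libraries of BALB/c were not alike: the slow troponin Tnni1 stood at 21.4 in BALB/c left 1 and at 184 and 170 in left 2 and 3, on the scale of all 12 libraries, against 0.209 to 1.86 in C57BL/6 left. Without BALB/c left 2 and 3 only 45 and 43 genes were called. That fit keeps BALB/c left 1 as the only BALB/c left library. Calls lost in it, here and below, cannot be told apart from an effect of fewer libraries. Leaving out 1 library gave 142 to 598 higher and 192 to 697 lower, the fewest without C57BL/6 right 3 (164 and 217 without C57BL/6 right 2).

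Some right-leg differences had no counterpart in the left legs. Uchl1 stood at 0.543, 1.88 and 3.38 in BALB/c left and 2.30, 2.95 and 1.99 in C57BL/6 left, where the strains overlapped, against 4.46, 11.4 and 14.8 and 238, 185 and 220 on the right (difference between legs log2 -4.03 ± 0.64, adjusted p = 0.00525). That call was lost without BALB/c left 2 and 3 (adjusted p = 0.0525). Dusp4 was at 0.208 to 1.31 in the 6 left libraries, 0.360 to 0.524 in BALB/c right and 5.23 to 7.77 in C57BL/6 right (-3.29, adjusted p = 0.0014). Tuft1 (-2.97, adjusted p = 1.1e-05) and Mthfd2 (-2.21, adjusted p = 0.0022) were also called in this test. Spp1 gave -4.33 (adjusted p = 0.039) with 1 C57BL/6 left library at 8.31 and the others at 0 and 0.150; without BALB/c left 2 and 3 its adjusted p was 0.24, without both high-haemoglobin libraries 0.12, and without any single library other than BALB/c left 1, BALB/c right 2 or C57BL/6 left 1 it missed the threshold too.

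Higher in BALB/c on the right alone were Ankrd55 (20.9, 40.3 and 49.0 against 5.07, 4.03 and 5.04 on the right-leg scale; log2 2.76 ± 0.29, adjusted p = 0.0019), Perp, a desmosomal membrane protein (2.70 ± 0.27, adjusted p = 0.0017), and Il20rb, an interleukin receptor chain (2.20 ± 0.18, adjusted p = 0.00086). All left libraries of these 3 genes were under 1 RPKM on the 12-library scale. Differences between legs were 2.53 for Ankrd55, 2.59 for Perp, 2.42 for Il20rb, 3.54 for Col10a1 and 3.01 for Tceal6; by limma-voom, Ankrd55 (adjusted p = 0.76) and Col10a1 (adjusted p = 0.47) were not called. Asb2 (2.02, adjusted p = 0.0016) and Trim63 (1.09, adjusted p = 0.0073) were called as well.

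For Actc1 the strains differed in the left legs (log2 -2.32, adjusted p = 0.0011). On the 12-library scale BALB/c left libraries held 187, 128 and 257 and C57BL/6 left ones 792, 935 and 1130, while right libraries held 34.0, 28.3 and 26.6 and 16.2, 18 and 42, where the strains overlapped. In the right legs alone the difference was 0.36 ± 0.34 (adjusted p = 0.46), and between legs 2.70 (adjusted p = 0.0070; 0.0525 without BALB/c left 2 and 3). Nnt, too, was called in the left legs (1.18, adjusted p = 0.014) and in the difference between legs (-1.50, adjusted p = 0.017).

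Fgfbp1, a carrier of fibroblast growth factors made by muscle, was read 125 to 193 times in each C57BL/6 left library, 4 to 8 times in each C57BL/6 right library and at most 2 times in any BALB/c library. It fell under the right-leg limit, and its difference between legs was 3.79 ± 0.24 (adjusted p = 1.2e-05). Myl4, the embryonic and atrial light chain, ran the other way: 5.92, 7.09 and 8.92 in BALB/c left and 23.9, 25.7 and 21.2 in C57BL/6 left, but 210, 710 and 463 against 131, 111 and 113 on the right (3.43, adjusted p = 0.0022). Strains did not overlap in either leg, and their order was opposite. In the right legs alone Myl4 gave 1.81 ± 0.39 (adjusted p = 0.0178; up to 0.0681 with 1 library left out).

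Slow-fibre genes were part of the largest negative differences between legs. Tnni1 gave -4.01 (adjusted p = 0.027), the slow light chain Myl2 -3.58 (0.0285) and the slow calcium pump Atp2a2 -3.25 (0.0196), after left-leg differences of 5.99, 4.36 and 2.72. Without BALB/c left 2 and 3 these became smaller (Myl2 -1.85, Atp2a2 -1.62), and none was called (adjusted p = 0.18 for Tnni1, 0.22 for Myl2 and 0.0563 for Atp2a2). Atp2a2 also missed the threshold without C57BL/6 right 2 or 3 (adjusted p = 0.0521 and 0.051) and, like Tnni1, without both high-haemoglobin libraries (0.0673 for Atp2a2, 0.0832 for Tnni1). Tnni1 (0.107 by limma-voom, up to 0.0713 with 1 library left out) and Myl2 (up to 0.0760) missed it without each of several single libraries. How much slow-fibre tissue entered each left sample was not tested.

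Csrp3, a stretch-related protein of the Z-disc, gave -4.02 (adjusted p = 0.015) and Fxyd2, a sodium pump subunit, -3.98 (0.0044). Fxyd2 stood at 4.29, 12.3 and 10.2 in BALB/c right and 63.9, 24.8 and 67.4 in C57BL/6 right, with no overlap (log2 -2.46 ± 0.48, adjusted p = 0.0124; 0.052 without C57BL/6 right 3 and 0.0677 without both high-haemoglobin libraries). Without BALB/c left 2 and 3 neither difference between legs was called (0.16 for Csrp3, 0.0607 for Fxyd2).

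**Figure D5:**
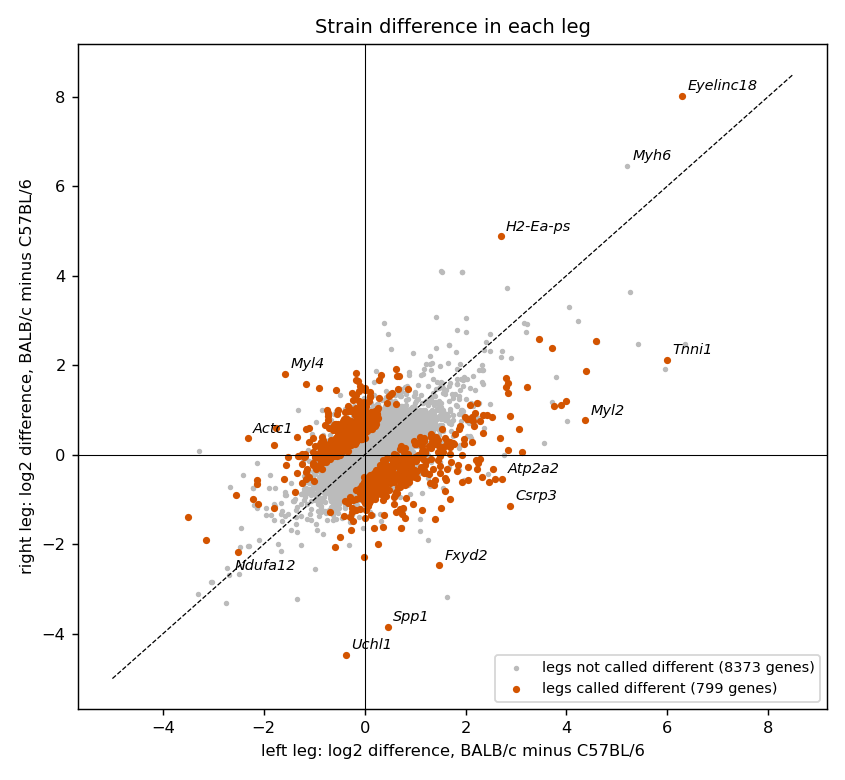
Strain difference (BALB/c minus C57BL/6, log2) in the left leg on the horizontal axis and in the right leg on the vertical axis for the 9172 genes tested in both; each point is a gene. The 799 genes called in the test of the difference between legs are coloured and the other 8373 grey; Uchl1 sits far below the diagonal (left -0.38, right -4.47), while Ndufa12 sits near it.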

How the data were processed

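PolyA RNA from right (denervated) and left gastrocnemius of BALB/c and C57BL/6 mice was sequenced, 3 libraries a group. Per the file headers, the authors made RPKM values with HOMER's analyzeRepeats on mm9 gene models, both strands counted over exons, 1 transcript kept per gene; the submitters' processing notes name HISAT2, HOMER, DESeq2 and GRCm38/mm10, with no versions. In each library 100% of judged values (13757 to 14431) were whole read numbers within 0.1 read, so each library had been scaled by its own total, and the 2 tables were joined. The columns were rescaled together by median of ratios and tested with limma 3.58.1 (R 4.3.3) on log2(value + 0.5), moderated with a mean trend, and p-values were adjusted by Benjamini-Hochberg across every gene in the fit; fold changes of low genes are understated on this scale. The 12 libraries were rescaled together for the difference between legs. Limma-voom on the recovered reads was an alternative.

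Named genes were the 12 largest non-overlapping called differences in each direction, up to 2 called members per direction of each of 34 lists (601 tested genes; the most abundant member where none was called), 22 fixed genes, and the 8 largest differences between legs in each direction; not all are described, and 3 are not reported here. Before the 12 and the 8 largest were taken, symbols starting with Gm and a digit, LOC, Mir or Snor were left out. So were symbols ending in Rik or made of letters and a database number. The comparison and the lists were chosen with earlier results of these data known. Hba-a1 was added after its values were seen. Near-identical copies (95% identity over 50% of a transcript) were searched with blastn 2.17.0. Calculations were tested on simulated data.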

Additional observations from a re-analysis of the deposited data

Results flagged for a closer look

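For 16 genes, those with the largest called values by the naming rule, the strain difference itself differed between the legs by the interaction test over 12 libraries (limma, adjusted p under 0.05). The difference, right minus left on the log2 scale, was 3.79 for Fgfbp1, 3.54 for Col10a1, 3.43 for Myl4, 3.01 for Tceal6, 2.70 for Actc1, 2.59 for Perp, 2.53 for Ankrd55 and 2.42 for Il20rb. It was -4.33 for Spp1, -4.03 for Uchl1, -4.02 for Csrp3, -4.01 for Tnni1, -3.98 for Fxyd2, -3.58 for Myl2, -3.29 for Dusp4 and -3.25 for Atp2a2. Il20rb and Myl4 were called under every alternative run for this test, as were Dusp4, Fgfbp1, Perp and Tceal6 apart from the 5 RPKM filter, which they did not pass.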

How the results depend on the processing

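Of 128 named genes tested in the right legs, 107 were called, 67 of them under each alternative that tested them, except the size requirement and those chosen after seeing the data; 31 missed the size requirement of 1 log2 unit, and 40 lost the call in at least 1 of the others. Rescaling to a common sum gave 613 higher and 719 lower in the right legs, 2314 and 455 in the left, and 88 and 728 between legs. Requiring an absolute log2 difference of at least 1 left 314 and 227 (right), 463 and 154 (left), and 133 and 266 (between legs). A filter of 5 RPKM gave 868 and 776 in the left legs; values as deposited gave 738 lower there and 247 higher between legs. Leaving out 1 library gave 440 to 1672 higher and 382 to 1701 lower (right), 886 to 1759 and 629 to 1455 (left; lowest without C57BL/6 left 1 and 3), and 142 to 598 and 192 to 697 (between legs). Chosen after seeing the data, leaving out BALB/c left 2 and 3 gave 45 and 43 between legs. The cause was not tested. Uncalled log2 differences changed sign with 1 library left out for Myog (-0.6111 to 0.2059, and 0.0047 without BALB/c right 1), Runx1 (-0.1453 to 0.0315), Gadd45a (-0.233 to 0.0699) and Myh2 (-0.6898 to 0.0726); Ncam1 (0.1046) and Gadd45a (0.0143) did so without both high-haemoglobin libraries, also chosen after seeing the data.

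Deviations from group means of same-numbered right libraries correlated at -0.066, 0.295 and 0.125 across strains. Between the legs of a strain, same-numbered libraries correlated at -0.003, 0.046 and 0.233 in BALB/c and at 0.175, 0.099 and 0.013 in C57BL/6. Whether same-numbered legs came from the same mouse is not given, and so few libraries cannot decide it. The main test between legs treated the libraries as unpaired. With a replicate block 1282 were higher and 1113 lower in the right legs, 1540 and 1263 in the left, and 499 and 601 between legs (353 and 488 with the block within strain). With 3 libraries a group and 18132900 to 19282900 reads each, genes under 1 RPKM were not compared.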
